A study of Mus musculus with 11 samples.

Results

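The regions described here are the distal sites of histone H3 lysine 27 acetylation (H3K27ac) in the mouse pre-T line Beko that lie 10 to 50 kb from the nearest assigned transcription start site. They were chosen by position and size only: a region of the authors' deposited table was taken when it carried no mark for overlap with an RBPJ site, its distance to a start site was over 10 kb and at most 50 kb, and it was under 5000 bp wide. This gave 17815 of the 56342 regions in the table, 31.6%. The cells were exposed for 24 h to 1 of 3 conditions: the solvent DMSO, apicidin (0.01 mg/ml as labelled), which blocks histone deacetylases and which the labels call an HDAC3 inhibitor, or DAPT (10 mg/ml as labelled), a gamma-secretase inhibitor (GSI). H3K27ac was profiled by chromatin immunoprecipitation and sequencing (ChIP-seq) in 2 libraries per condition, RBPJ in 2 libraries of DMSO cells, and 1 input was made per condition, 11 libraries in all. The groups share the cell line and carry no named genetic change, and a single line is the only model. Nothing in the labels states that paired libraries are different cultures, and the p-values then reflect spread among libraries that may be technical.

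H3K27ac marks active promoters and enhancers. Acetyltransferases such as p300 and CBP place it, and deacetylases, among them HDAC3 in NCoR corepressor complexes, remove it. Enhancers often lie far from the gene they act on, and a locus can hold several. Notch receptors are cut by gamma-secretase after ligand binding. The freed intracellular domain joins RBPJ on DNA and brings in acetyltransferases, whereas RBPJ without Notch can hold NCoR and deacetylases. Notch signalling is needed for early T cell development, and Hes1, Hey1, Dtx1, Notch1 and Il2ra are among the genes it is known to act on.

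The symbol of each region is the gene that the authors' table assigns, and it does not show that the region acts on that gene. The letters of the regions themselves were not used here, because no genome of the build of the files (mm9) was used. For 4 genes around which the results below turn, the RefSeq sequence of the 250 bases before an annotated start site (build GRCm38.p6, other coordinates than those of the regions) is shown: Il2ra, Notch1 and Dtx1, whose distal regions were lower with GSI next to RBPJ-bound chromatin, and Ccr9, whose distal region led the largest increases listed below. The core letters of the RBPJ motif, TGGGAA on either strand, would stand in capitals.
Il2ra (chr2:11642542-11642791, plus strand): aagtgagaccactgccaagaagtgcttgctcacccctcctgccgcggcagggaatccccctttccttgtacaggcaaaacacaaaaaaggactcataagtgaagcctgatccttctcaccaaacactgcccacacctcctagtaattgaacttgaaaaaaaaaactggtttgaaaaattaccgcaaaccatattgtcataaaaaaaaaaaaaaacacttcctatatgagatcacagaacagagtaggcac
Notch1 (chr2:26503823-26504072, minus strand): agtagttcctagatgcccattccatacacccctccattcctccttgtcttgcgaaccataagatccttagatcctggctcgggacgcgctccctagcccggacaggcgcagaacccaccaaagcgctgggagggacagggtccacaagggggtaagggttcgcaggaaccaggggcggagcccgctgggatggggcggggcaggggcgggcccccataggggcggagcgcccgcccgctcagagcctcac
Dtx1 (chr5:120711670-120711919, minus strand): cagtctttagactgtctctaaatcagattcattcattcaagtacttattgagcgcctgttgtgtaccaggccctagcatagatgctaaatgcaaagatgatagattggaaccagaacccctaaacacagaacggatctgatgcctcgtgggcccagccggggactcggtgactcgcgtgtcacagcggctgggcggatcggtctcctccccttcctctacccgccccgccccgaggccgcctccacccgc
Ccr9 (chr9:123766961-123767210, plus strand): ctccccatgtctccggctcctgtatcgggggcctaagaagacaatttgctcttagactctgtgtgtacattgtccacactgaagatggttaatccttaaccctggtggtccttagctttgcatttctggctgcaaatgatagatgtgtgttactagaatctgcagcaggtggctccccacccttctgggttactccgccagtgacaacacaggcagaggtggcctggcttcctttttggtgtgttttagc
None of these 4 windows holds TGGGAA. Of all 32851 RefSeq promoter windows of this length, 21.6% hold it. Among the 24 genes with a distal region that was lower with GSI within 5 kb of an RBPJ-overlapping region (described below), 15 had an entry, with 20 windows, and 0 of these windows hold the letters. The search covers these windows only and shows nothing of binding elsewhere.

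The distal regions were mostly narrow and weakly acetylated. Their median width was 521 bp (quartiles 296 and 1121.5 bp) against 620 bp over all regions in the authors' deposited table. Their median base mean, which is the mean of normalised reads over the libraries, was 49.4 (quartiles 27.6 and 125.9, highest 2899) against 61.3 over all regions. They were assigned to 4830 gene symbols, of which 1725 had 1 such region and 385 had 10 or more. The genes with the most were Gm10007 with 44, Mbp with 39, Runx1 with 37, Rras2 with 36 and Myb with 34. Runx1 and Myb encode transcription factors of early T and blood progenitor cells, and Mbp encodes myelin basic protein, which has a second transcript family in lymphoid cells. Joined across gaps of up to 10 kb, the regions formed 6232 loci, 2711 of them single regions. Another region of the table lay within 1 kb of 11951 (67.1%), at a median gap of 337 bp over all of them, so neighbouring regions are often pieces of 1 acetylated stretch and are not independent.

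In a short panel of marker genes, start site regions were found for T cell markers only. All 12 T cell markers had an H3K27ac region somewhere in the table, 11 of them with 1 over a start site. Of the markers of B cells 4 of 6 had a region, of myeloid cells 1 of 6, of erythroid cells 2 of 4, of natural killer cells 2 of 3, of neurons 2 of 4, and of fibroblasts and epithelia 3 of 4, and none of these other markers of the panel had a region over a start site. The longer lists used below do hold such genes. Examples are Pou2af1 (B-lineage, base mean of the start site region 654), Irf8 (myeloid, 163) and Tyrobp (natural killer, 398). The depth of each library is unknown: the table gives a mean over libraries only. The precision is therefore carried by the standard error (SE) of each log2 fold change, whose median over the distal regions was 0.35 for apicidin and 0.36 for GSI.

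With apicidin, 1577 distal regions were higher and 1992 lower than in DMSO at the authors' adjusted p under 0.05 (DESeq2), and 14246 were not called. That is 20.0% called, against a background of 23.8% over all regions tested (9.69% higher and 14.1% lower). The median log2 fold change of the distal regions was -0.01, and 0.00 over all regions. The regions called higher had a median of 0.87 and lay at 1100 loci, and those called lower had a median of -0.82 and lay at 1454 loci. At least a doubling or halving was called for 633 higher and 623 lower regions, against backgrounds of 3.45% and 2.78%. The direction of the balance depended on where 0 was placed: higher calls made up 44.2% of the calls as deposited, 58.1% after centring on the stronger regions (2050 higher, 1481 lower) and 52.5% after subtracting the trend over base mean (1819 higher, 1645 lower).

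With GSI, 6719 of the distal regions had an adjusted p, which the authors' table gives from a base mean of 72.1 upwards, and the other 11096 were untested. Of those tested, 442 were higher and 527 lower, 14.4% against a background of 13.8% (6.62% higher and 7.17% lower). This share is near the background. The called regions had a median log2 fold change of 0.58 in the higher and -0.61 in the lower group, and changes past 1 on the log2 scale were called for 58 higher and 50 lower regions (background 0.532% and 0.637%). The plot of fold change against base mean shows both treatments on the same scale.

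**Figure D1:**
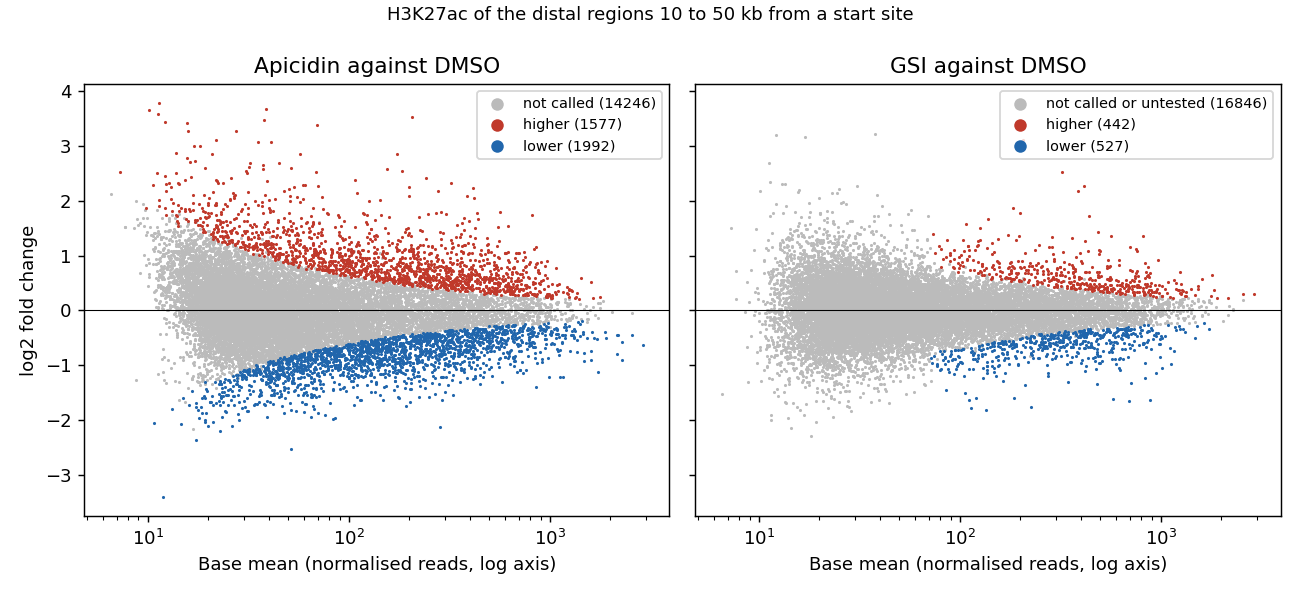
Log2 fold change against base mean (log axis) for each of the 17815 distal regions, apicidin on the left and GSI on the right; points are regions, red called higher, blue called lower, grey not called or, for GSI, untested. With apicidin 1577 are higher and 1992 lower of 17815 tested, and with GSI 442 and 527 of 6719 tested. No GSI call can lie under a base mean of 72.1, since regions there have no adjusted p.

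Strong regions were called more often than weak ones in the authors' deposited table. Across quintiles of base mean set over all regions, the share of distal regions higher with apicidin was 3.60% in the lowest and 24.1% in the highest, and the share lower was 1.63% and 28.2%. The median fold change with apicidin was 0.21 in the lowest quintile, -0.04, -0.09 and -0.08 in the next ones and -0.03 in the highest. The median SE fell from 0.52 to 0.12 over the same quintiles, so the weakest regions are also the least precisely measured. For GSI the highest quintile held 1998 tested regions, of which 276 were higher and 290 lower.

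Distal regions were compared with the classes on either side of them, also without RBPJ overlap and under 5000 bp. Among 15937 gene-proximal regions (over 1 kb and at most 10 kb from a start site) apicidin gave 1383 higher and 981 lower regions, with a median fold change of 0.16. Among 10007 far distal regions (over 50000 bp) it gave 1191 higher and 1158 lower, with a median of 0.02. Lower calls were thus 11.2% of the distal, 6.16% of the gene-proximal and 11.6% of the far distal regions. In the fourth quintile of base mean, where strength is alike, 22.1% of the distal regions were lower, against 14.8% of the gene-proximal and 20.3% of the far distal ones. In the highest quintile these shares were close, at 28.2%, 28.4% and 29.3%. After centring, higher calls were 72.2% of all calls in the gene-proximal and 61.9% in the far distal class. Regions are not replicates, so these shares are a description with no test.

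**Figure D2:**
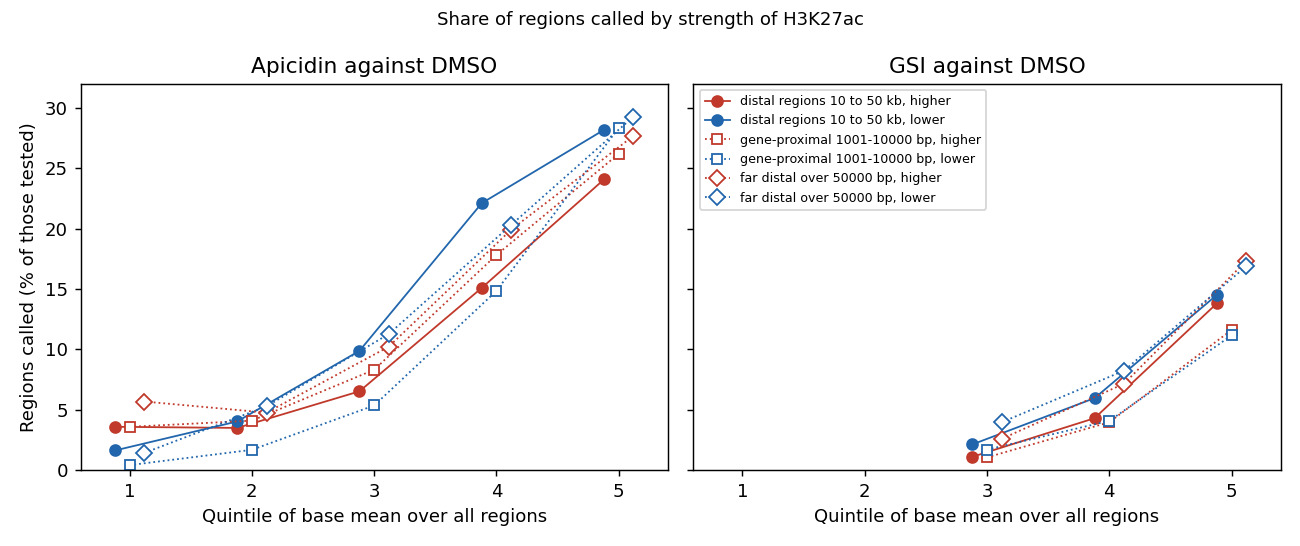
Share of regions called (percent of those tested) by quintile of base mean over all regions, with apicidin on the left and GSI on the right; filled circles are the distal regions, squares the gene-proximal and diamonds the far distal regions, red higher and blue lower. The share of distal regions lower with apicidin rises from 1.63% to 28.2%, and in the fourth quintile it stands at 22.1% against 14.8% for gene-proximal regions, while in the highest the gene-proximal share is 28.4%.

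Within the window, the share lower with apicidin was 10.5% in the nearest 10 kb step, 10.7% and 11.5% in the next and 13.9% in the farthest. The share higher was 8.46% in the nearest and 9.84% in the farthest step. With GSI, 204 of 2850 tested regions were lower in the nearest step (7.16%) and 102 of 928 in the farthest (11.0%), and 60 were higher in the farthest. At the edges of the window, in the authors' deposited table, the 958 regions in the first 1 kb inside the near edge had a median log2 fold change with apicidin of 0.0069 and the 1093 in the 1 kb before it had 0.022. The 190 regions in the last 1 kb had 0.014 and the 206 in the 1 kb beyond had 0.077. At the width limit, 38 higher and 27 lower with apicidin were called among 107 regions just inside, and 36 and 24 among 92 regions just outside.

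Several of the largest increases were called with both treatments. These genes were taken by a rule of size among called regions whose base mean reached the median over the whole table. A region 12626 bp from Ccr9 (chr9:123662456-123663702), which encodes a chemokine receptor of thymocytes and gut-homing T cells, led both lists. Its log2 fold change in the authors' deposited table was 3.52 ± 0.25 (SE) with apicidin and 3.12 ± 0.26 with GSI, with DESeq2 adjusted p of 2.06e-40 and 2.32e-30. A region 13935 bp from Cxcr6 (chr9:123699968-123701659), another chemokine receptor gene on the same stretch of chromosome 9, was also higher, by 1.35 ± 0.24 with apicidin and 1.67 ± 0.24 with GSI. The region over the Cxcr6 start site was higher as well, at 1.79 and 1.13. Of the same kind were Il21r, a cytokine receptor gene (chr7:132773250-132775136, 2.32 ± 0.18 and 2.53 ± 0.18), and Rhbdl3, a rhomboid family gene (chr11:80135492-80138009, 2.23 ± 0.15 and 2.28 ± 0.15). The SH2 adaptor gene She followed (chr3:89674099-89676232, 2.09 ± 0.16 and 2.18 ± 0.16), and Ptk2b, which encodes a tyrosine kinase, stood at 2.54 ± 0.23 and 1.87 ± 0.24. A region of Dad1, the gene beside the T cell receptor alpha locus, stood at 1.67 ± 0.15 and 1.72 ± 0.15. The DMSO libraries are common to both comparisons: a low value there raises both fold changes, and the shared sign is no independent support.

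For some of the largest increases with apicidin the values with GSI were smaller. Hs6st1, a heparan sulfate sulfotransferase gene, had 3.39 ± 0.40 with apicidin (chr1:36082101-36083102, adjusted p of 1.03e-15 by DESeq2) and 1.72 ± 0.42 with GSI, where it was untested. Sema6a, which encodes a semaphorin, had 2.85 ± 0.22 and 1.37 ± 0.24. Mettl8, an RNA methyltransferase gene, had 2.58 ± 0.24 and 1.31 ± 0.26, and Xkr7 had 2.41 ± 0.18 and 0.74 ± 0.20. The difference between the treatments, computed here from both deposited fold changes and their SEs, passed at an adjusted p under 0.05 for these 4 regions. It did not pass for Scn10a (2.38 and 1.58, adjusted p of the difference 0.26) or Gm10638 (2.52 and 1.30, 0.11). Its SE is an upper bound, since the shared DMSO libraries count in both terms. The regions were picked for large apicidin values, which favours smaller GSI values and a large difference, so a pass adds no support.

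None of the 8 largest decreases with apicidin, among regions whose base mean reached the median, was called with GSI, and 4 of them had no adjusted p there. The first of them was at Dagla, a diacylglycerol lipase gene (chr19:10350978-10353406), at -2.13 ± 0.17 in the authors' deposited table, with -0.37 ± 0.16 for GSI, which did not pass. Fcrla, an Fc receptor-like gene (chr1:172871879-172872293), had -1.98 ± 0.28 and -0.08 ± 0.26, and Ccdc93, which encodes an endosomal sorting protein, had -1.96 ± 0.29 and -0.20 ± 0.27. The others were Vps8, Gm6583, Pfkfb3, Ngfr and Ubr2, between -1.95 and -1.75 with apicidin and between -0.65 and -0.06 with GSI, where only Gm6583 of these 5 had an adjusted p. The difference between the treatments passed for all 8 of these regions, with adjusted p from 2.45e-11 at Dagla to 0.04 at Vps8. They were picked for low apicidin values, which enter the difference and favour a pass, so it adds no support.

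The largest decreases with GSI differed in what apicidin did. A region of Smok4a, a sperm motility kinase gene (chr17:13673818-13675190), had -1.81 ± 0.25 with GSI (adjusted p of 7.79e-11 by DESeq2) and 0.03 ± 0.21 with apicidin. A region of the noncoding transcript I730028E13Rik (chr9:61024264-61025562) had -1.78 ± 0.28 and 0.21 ± 0.23. Regions of Ptpro, a receptor tyrosine phosphatase gene (chr6:137370169-137372505), and of the noncoding Gm5122 (chr9:60901186-60906098) were lower with GSI by -1.76 ± 0.20 and -1.64 ± 0.11 and higher with apicidin by 0.63 ± 0.16 and 0.68 ± 0.10. Brd7, a bromodomain protein of a chromatin remodelling complex, Psmd9, a proteasome assembly gene, and Cxxc5 were lower with both, at -1.64, -1.60 and -1.60 with GSI and -1.19, -0.98 and -0.57 with apicidin. The apicidin call at Cxxc5 was lost after centring (adjusted p 0.11) and after trend subtraction (0.09). Gm5122 and I730028E13Rik are neighbours on chromosome 9 and are not independent.

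**Figure D3:**
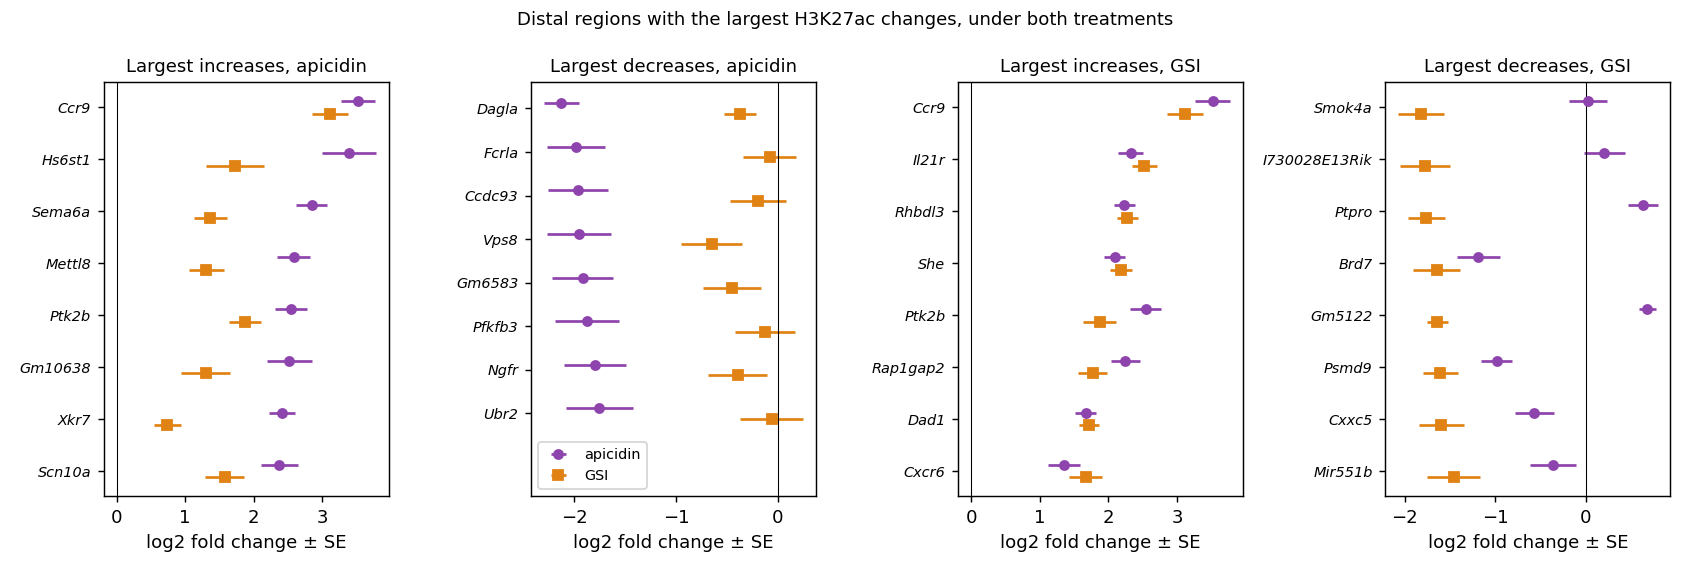
Log2 fold change ± SE under apicidin (circles) and GSI (squares) for distal regions with large called changes, 1 per gene symbol. These are the 8 largest increases and 8 largest decreases under each treatment among regions whose base mean reached the median over all regions. Regions with the largest increases lie right of 0 under both treatments, the largest decreases with apicidin have GSI values between -0.65 and -0.06, and Ptpro and Gm5122 lie on opposite sides of 0.

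Of the 6719 distal regions tested for both treatments, 285 (4.24%) were called higher with both and 298 (4.44%) lower with both, against 3.84% and 3.89% of the 25756 tested regions of the whole table. These counts share their DMSO libraries. Their median log2 fold changes were 0.90 with apicidin and 0.68 with GSI, and -0.75 and -0.60. Opposite calls are not favoured by a shared control. In the authors' deposited table, 28 distal regions (0.417%) were higher with apicidin and lower with GSI (medians 0.63 and -0.55), against a background of 0.478%. In the reverse direction 19 (0.283%) were lower with apicidin and higher with GSI (medians -0.43 and 0.31), against 0.664%. The difference between treatments passed for all 28 and all 19. They were selected for opposite calls, which nearly fixes this outcome, so it adds no support. Over all distal regions the difference passed for 940 (5.28%, background 8.61%), with apicidin above GSI in 412 (background 3.01%) and below in 528 (background 5.60%).

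Among the opposite regions, Ptpro (chr6:137391889-137396638) had 0.56 ± 0.11 with apicidin and -1.61 ± 0.13 with GSI in the authors' deposited table, a difference of 2.17 ± 0.17 (adjusted p 3.45e-33). Gm5122 differed by 2.32 ± 0.15 (1.63e-49), Xkr6 by 1.46 ± 0.14, Zfp704, a zinc finger gene, by 1.31 ± 0.16 and Pgpep1l, a peptidase gene, by 1.28 ± 0.14. In the reverse direction stood the most strongly acetylated distal region of all, near Lrrc8d, which encodes a volume-regulated anion channel subunit (chr5:106075665-106080106, base mean 2899). It had -0.63 ± 0.06 with apicidin and 0.30 ± 0.06 with GSI. Os9, an endoplasmic reticulum quality control gene with a base mean of 2567, had -0.46 ± 0.07 and 0.29 ± 0.07. Mogat1, an acyltransferase gene, had -0.75 ± 0.09 and 0.30 ± 0.09, and 1700073E17Rik had -0.50 ± 0.08 and 0.40 ± 0.08. Arpc2, an actin branching subunit gene, had -0.37 ± 0.09 and 0.35 ± 0.09, but its apicidin call was lost after trend subtraction (adjusted p 0.09). Of the 5 distal regions of highest base mean, the others were 1700026D11Rik, Gltscr1l and 1700019O17Rik, of which the last 2 were lower with apicidin (-0.91 ± 0.08 and -0.58 ± 0.08) and none passed with GSI.

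Among distal regions next to RBPJ-overlapping regions, a larger share was called lower with GSI than farther away. The split by gap was chosen after the values were seen, and the difference in share was not tested, since regions are not replicates. Of 111 tested regions within 5 kb of such a region, 30 were lower and 1 was higher. From 5 to 10 kb 11 of 108 were lower (10.2%), and beyond 100 kb 347 of 4628 (7.50%), which is near the background of 7.17%. The median log2 fold change of the tested regions with GSI was -0.20 within 5 kb, -0.11 from 5 to 10 kb and -0.01 beyond 100 kb. With apicidin, 28 of 297 regions within 5 kb were lower (9.43%) and 19 higher, and beyond 100 kb 1377 of 12190 were lower (11.3%). The apicidin shares include weak regions that were untested for GSI, so the shares of the treatments cannot be compared with each other. Among far distal regions within 5 kb 22 of 84 were lower with GSI and 2 higher, and among gene-proximal ones 25 of 428 and 11. The median base mean of the distal regions was 48.8 within 5 kb and 49.6 beyond 100 kb.

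**Figure D4:**
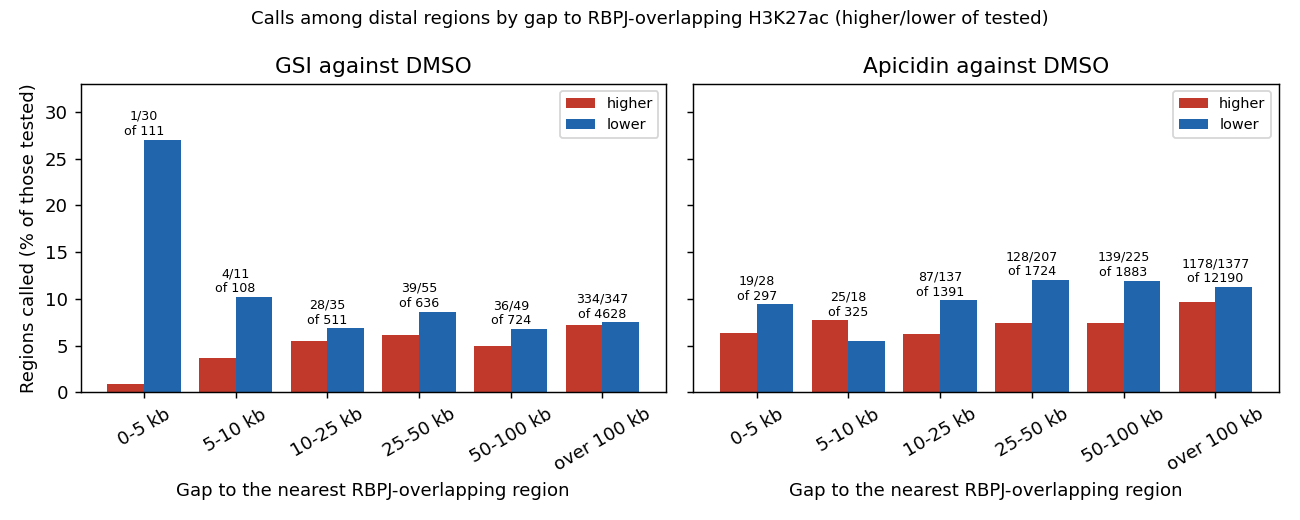
Share of distal regions called higher (red) and lower (blue), as percent of those tested, by gap to the nearest RBPJ-overlapping region, GSI on the left and apicidin on the right; the numbers printed over the bars give higher/lower of tested regions. Within 5 kb 30 of 111 are lower with GSI against 7.50% beyond 100 kb. With apicidin the shares are 9.43% and 11.3%. The apicidin shares include weak regions that were untested for GSI, so bar heights cannot be compared between the panels.

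The 30 lower regions lay at 25 loci and 24 genes. In 27 of them the nearest RBPJ-overlapping region was lower with GSI too, and in 3 it was not called. These pairs are not independent: the 30 regions had 25 such neighbours between them, with gaps down to 95 bp. Some pairs may therefore be pieces of 1 acetylated stretch. The share lower with GSI over all RBPJ-overlapping regions was not computed, so the 27 have no background. At Il2ra, the interleukin 2 receptor alpha gene, 3 of 4 distal regions lay within 5 kb of an RBPJ-overlapping region and were lower with GSI. The one 18109 bp from the start site (chr2:11582529-11586673) had -0.86 ± 0.09 with GSI (adjusted p of 2.40e-18 by DESeq2) and -0.06 ± 0.08 with apicidin, and the RBPJ-overlapping region beside it had -0.80 ± 0.13 with GSI. At Hey1, a direct Notch target and repressor gene, a region 2586 bp from RBPJ overlap (chr3:8707368-8711008) had -0.62 ± 0.10 with GSI and -0.65 ± 0.10 with apicidin. At Dtx1, which encodes a Notch pathway ubiquitin ligase, a region 10452 bp from the start site (chr5:121146849-121151225) had -0.36 ± 0.11 with GSI, while the RBPJ-overlapping region had -1.40 ± 0.09 and the start site region -1.27 ± 0.08. Other members of the group included Brd7, Tm6sf1, I730028E13Rik, Arhgef10l, Gfi1, Lmo4 and Ccnd3. Lmo4 and Ccnd3 were among the 3 whose neighbouring RBPJ-overlapping region was not called, at -0.03 ± 0.09 and -0.03 ± 0.08, and the third was Atp6v0a2. The 1 region that was higher was at Sema4b (0.43 ± 0.14), beside an RBPJ-overlapping region that was higher too (0.56 ± 0.11). Without the genes of the Notch/RBPJ list, 24 of 101 were lower (23.8%).

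Within joined loci, called distal regions mostly shared a direction, though neighbours are often pieces of 1 stretch and are not independent. Among loci with 2 or more called regions in the authors' deposited table, 301 were all higher, 343 all lower and 56 mixed with apicidin, and 55, 61 and 5 with GSI. By gene symbol, 121 had calls in both directions with apicidin and 14 with GSI. The genes named next were picked for having the most called regions. Hivep2, a zinc finger transcription factor gene, had 9 of 17 regions higher with apicidin and none lower, with 2.09 ± 0.20 at a region 31036 bp away (base mean 199), and its start site region was higher too (0.67 ± 0.08). With GSI 2 of its 5 tested regions were higher. Mbp had 12 of 39 higher with apicidin and 0 of 20 called with GSI. Slc9a9, a sodium-proton exchanger gene, had 8 of 12 higher, with the start site region at 1.28 ± 0.06. In the other direction Jazf1, a zinc finger cofactor gene, had 12 of 17 regions lower with apicidin, from -1.21 to -0.50 among the called ones, and 2 of 11 tested lower with GSI. Its start site region, which overlaps RBPJ, was lower with both (-0.62 ± 0.05 and -0.39 ± 0.05). Nedd4l, a ubiquitin ligase gene, had 8 of 18 lower with apicidin and 4 of 7 lower with GSI, and Hspg2, Ccdc93 and Auh had 7 lower each with apicidin. The start site region of Auh was higher with apicidin (0.42 ± 0.06), whereas those of Hspg2 and Ccdc93 were lower (-1.22 ± 0.32 and -0.46 ± 0.13).

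With GSI, the most regions lower were at Gm6567 (5 of 5 tested), Ptpro (5 of 7) and I730028E13Rik (5 of 6), and Notch1, Nedd4l, Ephx3 and Gm10007 were among those with 4. At Notch1, the receptor gene itself, 4 of 5 tested distal regions were lower, from -0.94 ± 0.14 at chr2:26394926-26397940 to -0.40 ± 0.12. The broad region over the Notch1 start site, which overlaps RBPJ, was lower by -0.77 ± 0.05 with GSI and -0.30 ± 0.05 with apicidin. Ptpro is set apart by its direction: 8 of 20 regions were higher with apicidin, none was lower, and 5 of 7 tested were lower with GSI. The most regions higher with GSI were at Vmn2r96 (5 of 5 tested, from 0.65 ± 0.10 to 1.10 ± 0.13), a vomeronasal receptor gene with no region over its start site in the table, and at Foxp1 (4 of 11), a transcription factor of lymphocyte quiescence. With apicidin 6 of the 11 regions of Vmn2r96 and 3 of the 28 of Foxp1 were higher.

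**Figure D5:**
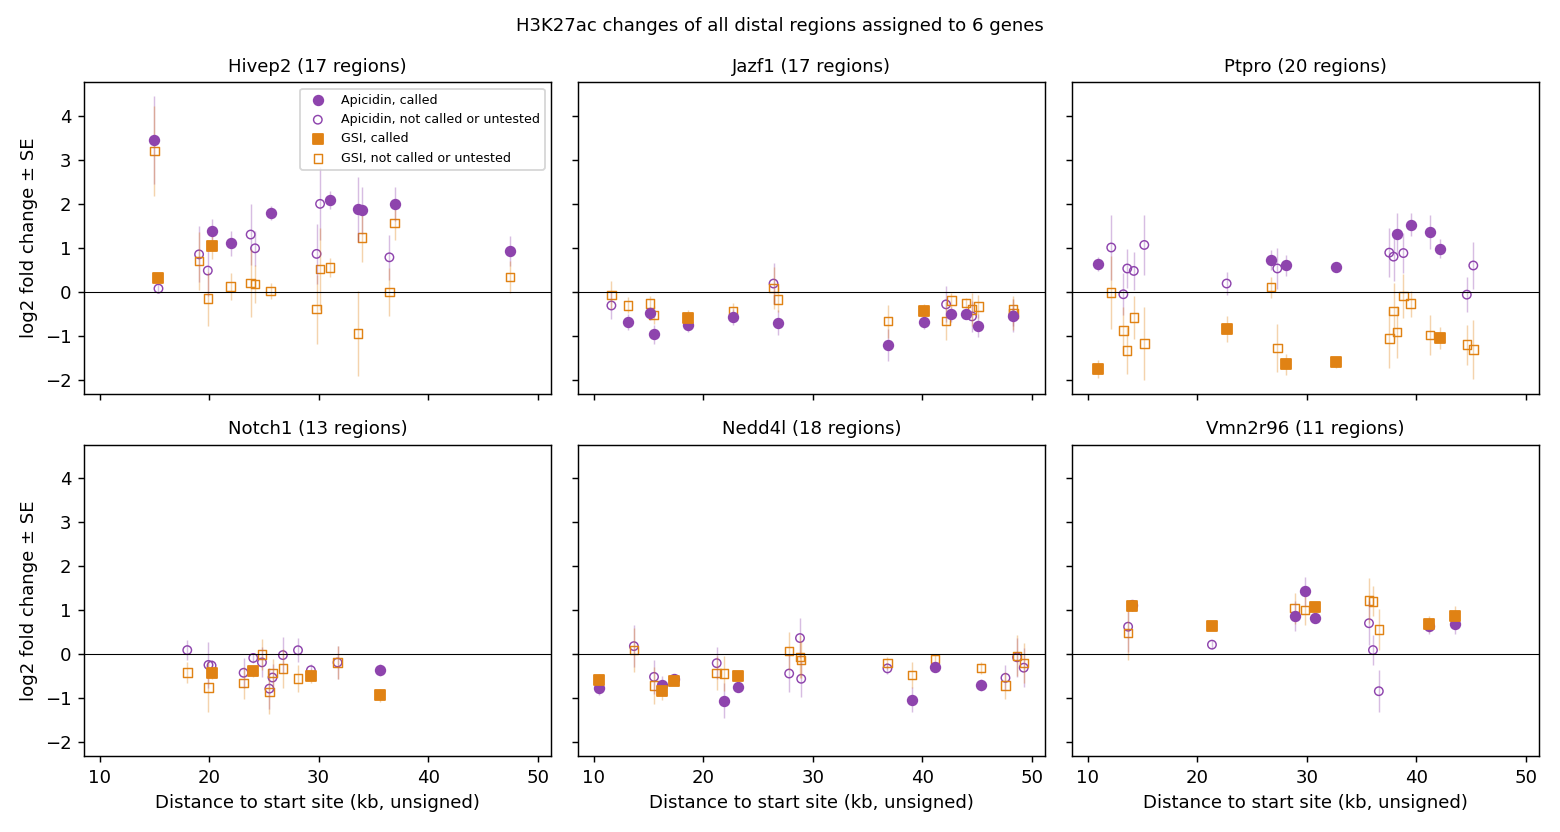
Log2 fold change ± SE of each distal region of 6 genes against its unsigned distance to the start site in kb; circles are apicidin and squares GSI, filled when called. Hivep2 regions lie above 0 with apicidin and Jazf1 regions mostly below, Ptpro regions lie mostly above 0 with apicidin and mostly below with GSI, and the called Notch1 and Nedd4l regions are lower with GSI.

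Start site regions of the same gene were set beside the distal regions. Of 943 distal regions higher with apicidin whose gene had a region over its start site, that region was higher in 276, lower in 227 and not called in 440. Of 1212 lower distal regions, the start site region was lower in 591 and higher in 101. For distal regions that were not called, 34.7% had a lower and 17.4% a higher start site region in the authors' deposited table. With GSI, the start site region was higher beside 43 and lower beside 4 of 249 higher distal regions. It was lower beside 78 and higher beside 3 of 301 lower ones, against 10.0% lower and 7.67% higher beside regions that were not called.

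Gene lists give the T cell view. They were chosen with earlier results of these data known, so the counts are a description. Of 308 distal regions of 31 T-lineage transcription factor genes, 45 were higher, at 19 genes, and 14 lower, at 7 genes, with apicidin. That is 19.2% called, near the 20.0% of all distal regions. Of the calls 76.3% were higher, against 44.2% over all distal regions, and the median over the 308 regions was 0.25. The counts were 61 and 10 after centring and 47 and 14 after trend subtraction. Tcf7, which encodes TCF-1, had 5 of 6 regions higher, with 0.89 ± 0.11 at chr11:52111055-52114960 in the authors' deposited table and -0.08 ± 0.12 for GSI there. Its start site region stood at 0.70 ± 0.06 with apicidin. Tox2, a thymocyte HMG-box factor gene, was higher with both (1.75 ± 0.11 and 1.35 ± 0.11), and Ets1 had 5 of 21 higher. Bcl11b, the T commitment factor gene, had 3 of 7 higher, Gata3 had 2 of 8, and Runx1 had 6 of 37 higher and 1 lower. Runx3, a factor of CD8 lineage cells, was split, with 2 of 6 regions higher and 4 lower. With GSI 8 of 103 tested regions of this list were higher and 5 lower.

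T cell receptor, coreceptor and surface genes had 24 higher and 4 lower of 204 regions with apicidin, 13.7% called against 20.0% over all distal regions, and 5 higher and 3 lower of 64 tested with GSI. Cd44, an adhesion and activation receptor gene, reached 1.80 ± 0.16 (chr2:102725106-102728092) and 0.58 ± 0.17 with GSI in the authors' deposited table. Cd2, a T cell adhesion receptor gene, had 1.15 ± 0.17 and 0.55 ± 0.18, and Prkcq, a kinase of receptor signalling, had 0.80 ± 0.12 with apicidin. Rag2, which encodes part of the recombinase, went the other way, with 2 of 9 regions lower with apicidin and 2 of 2 tested lower with GSI (-0.84 ± 0.16 and -0.47 ± 0.11), and its start site region was lower too (-0.88 ± 0.12 and -0.96 ± 0.12). The apicidin call of 1 of these Rag2 regions was lost after centring (adjusted p 0.16) and after trend subtraction (0.21).

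The list of Notch/RBPJ target genes had no region higher with GSI and 9 lower of 18 tested. The lower share was 50.0%, against 7.17% over all tested regions, and the 9 lay at 4 genes (Il2ra, Notch1, Hey1 and Dtx1). The lower regions of Il2ra, Hey1 and Dtx1 and a lower region of Notch1 are among the 30 next to RBPJ overlap, so these counts overlap. The median over all 55 regions was -0.36. With apicidin 10 were higher and 6 lower, 29.1% called against 20.0% over all distal regions. Hey1 had 5 of 5 regions lower with apicidin, and the sixth, at Notch1 (-0.36 ± 0.13), was lost after centring and after trend subtraction. The 10 higher regions were at Tcf7 (5), Bcl11b (3) and Gata3 (2), and the transcription factor list counts all of them too. Cytokine receptor and signalling genes had 5 higher and 14 lower of 64 tested regions with GSI, and 20 higher and 15 lower of 158 with apicidin. With GSI the lower share was 21.9%, against 7.17% over all tested regions, but the 14 regions lay at only 5 genes. Of the 14, 3 were the Il2ra regions that the Notch/RBPJ list also holds. Socs3, a feedback inhibitor gene of cytokine signalling, was lower with GSI (-1.34 ± 0.13, adjusted p of 1.99e-23 by DESeq2) and not called with apicidin (-0.26 ± 0.11). At Tgfbr1, 2 of 12 regions were higher with apicidin and 2 of 4 tested with GSI, and 1 region had 0.68 ± 0.10 and 0.69 ± 0.11. The Tgfbr1 start site region was lower with apicidin (-0.38 ± 0.11) and not called with GSI. Il6st, a shared receptor subunit gene, had 3 of 10 regions higher with apicidin, 1 of them at 1.02 ± 0.14.

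Effector cytokine and cytotoxic genes had 6 higher and 2 lower of 23 regions with apicidin and no call in 7 tested with GSI. Regions of Ccl5, a chemokine gene (3.07 ± 0.50, base mean 41.1), and Ifng (1.11 ± 0.27) were among the higher ones. The HDAC and NCoR complex list was mixed in the authors' deposited table, with 6 higher and 5 lower of 60 with apicidin. Of 2 Hdac5 regions 1 was higher with both (0.86 ± 0.19 and 0.56 ± 0.19), and Tbl1xr1 had 3 of 12 higher with apicidin. NF-kB and immediate early genes had 8 higher and 9 lower of 59 with apicidin, which turned to 10 and 7 after centring, and 5 higher and 2 lower of 27 tested with GSI. Of 2 regions of Tnfaip3, an NF-kB inhibitor gene, 1 was higher with GSI (0.45 ± 0.08) and had -0.04 ± 0.08 with apicidin. The 1 tested region of Nfkb2 was lower with GSI (-0.69 ± 0.13). Homing and adhesion genes, with Ccr9 and Cxcr6, had 5 higher and 4 lower of 54 with apicidin. Cxcr4, a receptor that holds progenitors in marrow and thymus, had 3 of 7 tested regions lower with GSI.

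Lists tied to growth and to other cell types held few regions, so single calls weigh heavily in their shares. Cell-cycle genes had 1 region higher and 1 lower of 51 with apicidin, and 1 higher and 2 lower of 17 tested with GSI, with a region of Cdc25a, a cell-cycle phosphatase gene, at -0.97 ± 0.22. Cell-cycle inhibitors had 3 and 2 of 39 with apicidin. Apoptosis genes had 1 higher and 4 lower of 45 with apicidin (2 and 1 after centring). Among them 1 of 4 regions of Bbc3, a p53 target gene, was lower with apicidin (-0.60 ± 0.20, lost after centring). The same region was higher with GSI (0.72 ± 0.20). At Bcl2l11, which encodes BIM, 1 of 8 regions was lower with both (-0.80 ± 0.21 and -0.74 ± 0.22), and the start site region was not called. Acetyltransferase and bromodomain genes had 1 higher and 3 lower of 35 with apicidin, and 1 of 10 regions of Kat6b was lower with both (-1.22 ± 0.15 and -0.51 ± 0.15). Ribosomal protein genes had 1 call of 28, a lower region of Rpl11 that was lost after centring, where 6 others were higher. Housekeeping genes had 3 higher and 2 lower of 27. Of the marker lists, myeloid genes had 4 higher and 2 lower of 18 with apicidin (33.3% called, Itgam with 3 of 5 higher), B-lineage genes 0 and 2 of 8, erythroid and megakaryocyte genes 0 and 2 of 6, natural killer and innate lymphoid genes 2 and 0 of 23 (both at Gata3, counted above), and fibroblast and epithelial genes 2 and 5 of 21 (33.3% called). For the myeloid, erythroid, fibroblast and B-lineage lists the share called with apicidin was above the 20.0% of all distal regions. No neuronal marker had a distal region of this kind. The part of other cells in these values was not tested.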

How the data were processed

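ChIP-seq for H3K27ac was made from Beko cells. Reads were processed by the authors, and per the submitters' processing notes FastQC, Bowtie2, SAMtools, deepTools and the mouse build mm9 were used, without versions. The sources used here do not name the tools that found regions and counted reads. The deposited table has no column for a single library. Its base mean, per the file headers, is a signal (mean normalised reads over the libraries), and the authors' log2 fold changes, SEs, Wald scores, p-values and adjusted p-values are those that DESeq2 writes. DMSO, the only control in the labels, was taken as the reference. The deposited Wald score equalled fold change over SE within 0.175%.

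A region was called where the authors' adjusted p was under 0.05, adjusted over the whole table. The treatments were compared by the difference of both deposited log2 fold changes divided by the combined SE (root of the summed squares); its normal p (two-sided) was adjusted by Benjamini-Hochberg over 56342 regions, a step tested on simulated data. Python 3.11.15, pandas 2.3.3, numpy 2.4.6 and scipy 1.17.1 were used. Alternatives were another threshold, a fold limit, centring (subtracting the median log2 fold change of the regions whose base mean reached the median), trend subtraction (a running median over 2001 regions ordered by base mean subtracted), low-signal filters, and other distance and width limits. The regions, the 20 gene lists (428 genes) and the tests were chosen with earlier results of these data known.

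Named regions were, per treatment, the 8 largest called increases and decreases at or above the median base mean, and the symbols with the most called regions. They were also the 5 regions of highest base mean, those called with both treatments (5 per combination of directions), the 5 per direction with the smallest p of the difference, up to 4 regions per list and treatment, and the 5 symbols with most regions. The regions next to RBPJ were named after their values were seen. Depth per library is unknown, and the number of libraries limits the precision. Motifs within regions, and their place in exons or introns, were not analysed here. Results for some named genes are not reported here.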

Additional observations from a re-analysis of the deposited data

How the results depend on the processing

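No paired analysis was possible because the table holds no value per library, and leaving out libraries was not run for the same reason. The apicidin counts (3569 called, 1577 higher, 1992 lower) became 1256, 633 and 623 with a log2 change of at least 1, and 2128, 934 and 1194 with the window starting 20 kb away. An adjusted p under 0.01 left 1050 higher, a width under 2000 bp left 1014 higher, and the strongest region of each locus gave 2059, 884 and 1175 (added after seeing the data). The GSI counts (969, 442 and 527) became 108, 58 and 50 with a log2 change of at least 1, 598, 275 and 323 with the window from 20 kb, and 388, 173 and 215 under 2000 bp wide. At an adjusted p under 0.01, 643 were called with GSI and 339 were lower. These alternatives test fewer regions or set a stricter limit by construction. The median with apicidin moved from -0.01 to 0.090 after centring, which subtracts -0.10, and to -0.065 among stronger regions. The subtracted trend was 0.79 at the lowest and -0.08 at the highest base mean. At an adjusted p under 0.01, 538 of the 940 regions still differed between treatments. Of the named regions none reversed: 7 apicidin calls were lost after centring and 5 after trend subtraction, and 1 GSI call after trend subtraction (Gadd45a, adjusted p 0.05). The share lower with GSI within 5 kb of RBPJ overlap was 18.7% with a 10 kb limit, 32.1% with 1 region per locus and 26.9% at gaps of 1 kb or more, all added after seeing the data.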

Other observations

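On chromosome X, 39 of 246 distal regions were higher with apicidin (15.9%) and 17 lower (6.91%), against 8.85% and 11.2% over all chromosomes. After trend subtraction these were 36 and 11. With GSI, 10 of 98 tested regions on chromosome X were higher and 1 was lower. The chromosome was singled out after its values were seen, and no test was made.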
